A study of Mus musculus with 3 samples.

Results

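The genes described here encode the contents of the cytotoxic granule of killer lymphocytes and 1 receptor of those cells. They are the granzymes Gzma, Gzmb, Gzmk and Gzmm, the pore former Prf1, the granule genes Nkg7, Cst7, Ctsw and Srgn, and the receptor gene Klrd1. They were chosen by symbol, and all 10 were found among the 44788 gene symbols of the count table. Messenger RNA was sequenced from T lymphocytes of the spleens of female BALB/c mice aged 6 to 8 weeks. The cells were taken with magnetic beads that bind CD90.2, the Thy1 antigen of mouse T cells, cultured with 2% fetal bovine serum and held for 10 h with LZ-8, a small protein that stimulates lymphocytes and comes from the medicinal mushroom Ganoderma lucidum. All 3 libraries belonged to this 1 treated group, with no untreated library beside them, so the values describe treated cells only. Separate mice or cultures are not named for the replicates, so the spread between them may be technical.

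Cytotoxic T cells and natural killer (NK) cells store perforin and granzymes in secretory lysosomes and release them onto a bound target cell. Perforin opens the target membrane, and the granzymes, a family of serine proteases, enter and cleave proteins whose loss kills the cell. Inside the granule these proteins are held on the proteoglycan serglycin, and the granzymes are activated by the protease cathepsin C. Resting T cells contain little of this machinery, and stimulated CD8+ T cells build it up.

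The sequences below are the promoter windows of 4 of the genes, shown because Gzmb had the highest and Gzma the lowest level of the 4 granzymes, Prf1 is the pore former that acts with them, and Nkg7 had the highest level in the set after Srgn. Each runs from 250 bases before to 49 bases after the start base of the RefSeq transcript, 5′ to 3′, on GRCm38.p6, a C57BL/6J reference and not the BALB/c strain of the mice. The windows are chr14:56262285-56262584 (minus strand) for Gzmb, chr13:113100932-113101231 (minus strand) for Gzma, chr10:61297586-61297885 (plus strand) for Prf1 and chr7:43436888-43437187 (plus strand) for Nkg7. Capitals mark 4 motif cores on either strand: RUNX (TGTGGT), AP-1 (TGANTCA), the core of the cyclic AMP response element, or CRE (TGACGT) and T-box (GGTGTGA).
Gzmb: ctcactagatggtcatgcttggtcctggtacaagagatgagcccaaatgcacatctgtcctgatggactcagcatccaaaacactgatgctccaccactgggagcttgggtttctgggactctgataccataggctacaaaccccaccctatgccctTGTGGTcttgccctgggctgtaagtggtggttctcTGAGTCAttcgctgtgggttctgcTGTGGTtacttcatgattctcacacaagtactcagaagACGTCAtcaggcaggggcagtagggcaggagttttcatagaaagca
Gzma: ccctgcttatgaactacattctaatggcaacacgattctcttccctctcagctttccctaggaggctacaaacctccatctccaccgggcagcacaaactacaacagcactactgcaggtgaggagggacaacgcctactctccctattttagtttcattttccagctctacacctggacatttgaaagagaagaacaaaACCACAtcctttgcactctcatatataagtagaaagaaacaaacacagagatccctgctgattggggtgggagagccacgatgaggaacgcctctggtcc
Prf1: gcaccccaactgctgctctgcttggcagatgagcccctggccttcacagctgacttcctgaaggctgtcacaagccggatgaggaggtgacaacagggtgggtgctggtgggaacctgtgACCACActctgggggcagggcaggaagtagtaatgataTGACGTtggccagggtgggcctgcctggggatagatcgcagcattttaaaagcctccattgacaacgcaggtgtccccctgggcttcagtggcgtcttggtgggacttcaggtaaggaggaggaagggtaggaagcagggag
Nkg7: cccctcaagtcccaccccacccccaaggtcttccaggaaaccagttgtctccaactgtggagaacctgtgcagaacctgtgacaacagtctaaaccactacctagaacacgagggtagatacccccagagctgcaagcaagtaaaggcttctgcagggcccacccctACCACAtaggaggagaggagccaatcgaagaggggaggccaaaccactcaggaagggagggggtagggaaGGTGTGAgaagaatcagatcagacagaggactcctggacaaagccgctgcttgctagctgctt

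In these windows Gzmb held 4 matches and Gzma 1. With the start base counted as 0, Gzmb had RUNX letters at -93 to -88 and at -34 to -29, AP-1 letters at -58 to -52, and the CRE core at 4 to 9. Gzma had RUNX letters alone, at -50 to -45. Prf1 had RUNX letters at -130 to -125 and the CRE core at -92 to -87, and Nkg7 had RUNX letters at -83 to -78 and T-box letters at -13 to -7. RefSeq windows were matched for 8 of the 10 genes, and Gzmm and Srgn had 2 starts each, which gave 10 windows. RUNX letters were found in 7 of the 10 windows and in 16.8% of all 32851 windows of the same length. AP-1 letters were in 2 of the 10 and 7.81% of all windows, the CRE core in 3 and 7.51%, and T-box letters in 3 and 3.98%. No base of these windows lay in more than 1 motif. The motif letters were chosen with these sequences in view, and a match describes letters and not a bound factor. The RefSeq start of Gzmb lies 74 bases upstream of the start of the GENCODE gene, that of Nkg7 65 bases and that of Prf1 3 bases downstream of it, and that of Gzma at the same base. Among the windows not printed, the start of Gzmk lies 44943 bases, the second start of Gzmm 4806 bases and the second start of Srgn 19694 bases downstream.

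Levels are given as CPM, the counts per 1000000 of the effective library size, with the mean ± SD of n = 3 libraries, or as the raw count in each library. The libraries held 13239482 to 15683820 counts, and 3 counts, the level below which a gene was not taken as detected, equalled 0.186 to 0.236 CPM. The share of counts on Rn18s-rs5, a copy of the 18S ribosomal RNA, was 5.83% in replicate 1, 2.37% in replicate 2 and 0.992% in replicate 3, so replicates 1 and 3 stood furthest apart. T cell identity genes, which cover the receptor complex, coreceptors, other surface molecules and proximal signalling, were all present, 15 of 15 at 10 CPM or more in every library. Beside them the cytotoxic granule genes took 0.0760% to 0.0904% of all counts. Of the 10, 6 had at least 10 CPM in every library and 9 had at least 1 CPM in every library. Among all 23131 genes with a count, 38.1% reached 10 CPM in every library and 55.9% reached 1 CPM. The median of the 10 mean levels was 13.8 CPM, and that of all genes with a count was 2.89 CPM.

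**Figure D1:**
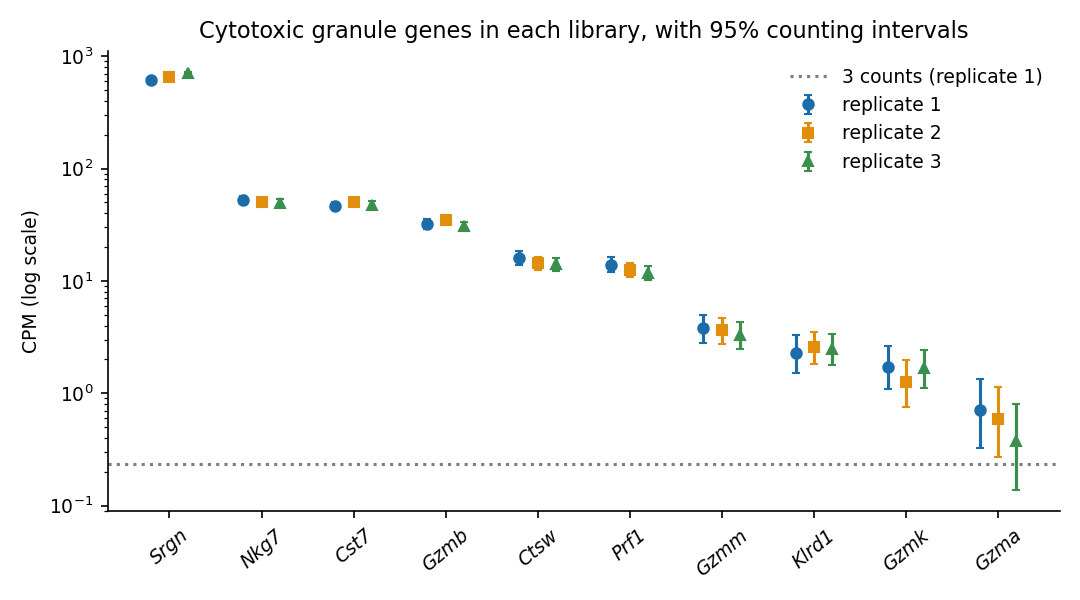
CPM on a log axis of the 10 cytotoxic granule genes in each of the 3 libraries, ordered by mean level; bars are exact 95% counting intervals and the dotted line is 3 counts in replicate 1. Srgn lies far above the others at 621 to 717 CPM, Nkg7, Cst7 and Gzmb lie between 30.7 and 52.4 CPM, and Gzma is lowest at 0.372 to 0.707 CPM.

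Gzmb carried most of the granzyme signal. Granzyme B, which cleaves after aspartate and activates caspases in the target cell, had 410, 527 and 495 counts in replicates 1, 2 and 3, or 32.2, 34.8 and 30.7 CPM. The 3 libraries were close, with a mean of 32.5 ± 2.07 CPM and a coefficient of variation of 6.35%, where counting alone gives 4.58%. Fewer cells that carry a transcript and less of it per cell cannot be told apart in these bulk libraries, here and for every gene below. Gzmb lies on chromosome 14 from 56258838 to 56262260 on the minus strand (GRCm38, GENCODE gene bounds), at the end of a cluster that also holds Gzmc to Gzmg and Gzmn.

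The other 3 granzymes were scarce. Granzyme M, a protease best known from NK cells, had 48, 55 and 53 counts for Gzmm, a mean of 3.56 ± 0.251 CPM. Gzmk, for a tryptase-like granzyme found in memory CD8+ T cells, had 22, 19 and 27 counts, a mean of 1.55 ± 0.260 CPM. Gzma, for the tryptase-like granzyme abundant in NK cells and effector T cells, had 9, 9 and 6 counts, a mean of 0.557 ± 0.171 CPM. Gzma was therefore above 3 counts in each library but under 1 CPM in each, and its exact 95% counting interval in replicate 3 ran from 0.136 to 0.809 CPM. Gzma and Gzmk are neighbours on chromosome 13, Gzma from 113093825 to 113100981 and Gzmk from 113171608 to 113225908, both on the minus strand. Esm1, with 34, 24 and 23 counts, lies within the bounds of Gzmk on the opposite strand and shares no exonic base with it. Gzmm lies on chromosome 10 from 79689020 to 79695261. Cdc34, a ubiquitin-conjugating enzyme gene that ends 621 bases before Gzmm on the same strand, was at 157 ± 3.33 CPM.

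Levels of different genes are compared per kilobase of exon. On that scale, Gzmb was at 22.7 ± 1.44, Gzmm at 2.42 ± 0.170, Gzmk at 1.12 ± 0.187 and Gzma at 0.554 ± 0.170 CPM per kb. Gzmb made up 83.3%, 86.0% and 84.9% of the summed level of these 4 granzymes in replicates 1, 2 and 3, a mean of 84.7 ± 1.35%. Gzmm made up 9.04 ± 0.409%, Gzmk 4.20 ± 0.870% and Gzma 2.06 ± 0.571%. By raw counts, without division by length, Gzmb was 410 of 489 granzyme counts in replicate 1, a share of 83.8% with an exact binomial 95% interval of 80.3% to 87.0%. The interval covers counting error only. Within libraries Gzmb was 42.3-fold above Gzma per kilobase (log2 ratio 5.40 ± 0.43), 20.5-fold above Gzmk (4.36 ± 0.34) and 9.37-fold above Gzmm (3.23 ± 0.09). In all 3 libraries each ratio had the same sign.

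Of the other 6 mouse granzymes only Gzmc was detected. Gzmc, the next gene to Gzmb in the cluster, had 13, 18 and 27 counts, a mean of 1.29 ± 0.338 CPM. Its mean per kilobase, 1.45 ± 0.379, lay between those of Klrd1 and Gzmk. Gzmd, Gzme, Gzmf, Gzmg and Gzmn had 0 counts in all 3 libraries, which allows up to 0.186 to 0.236 CPM each, depending on the library. Atp12a, the next coding gene on the other side of Gzmb, had 1, 3 and 0 counts. The longest transcripts of Gzmb and Gzmc were 77.3% identical over an aligned 844 bases. Those of Gzmd and Gzme were 93.5% identical over 928 bases, and those of Gzmg and Gzme 90.3% over 904 bases. Against Gm4022, Gzmf was 100% and Gzmn 88.3% identical over 154 bases. Reads of these genes could be shared, and the counter's handling of shared reads is not stated. The limit given for their 0 counts holds only if such reads were counted. For the 4 granzymes described above the closest match of at least 100 bases in another gene was 77.3% identical or less.

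Prf1, the gene of perforin, had a lower level per kilobase than Gzmb. It had 178, 189 and 189 counts, or 14.0, 12.5 and 11.7 CPM, and a mean of 12.7 ± 1.16 CPM. Replicate 1 was highest, but the coefficient of variation of 9.11% was near the 7.35% that counting gives. Per kilobase, Gzmb was 4.61-fold above Prf1, with log2 ratios of 2.05, 2.33 and 2.24. Prf1 lies on chromosome 10 from 61297833 to 61304680, and its coding neighbours Adamts14 and Pald1 were at 1.13 ± 0.183 and 0.0633 ± 0.0620 CPM.

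Srgn had the highest level of the set, in CPM and per kilobase. Serglycin, the proteoglycan core protein whose sugar chains bind granzymes and perforin, is also made by mast cells, platelets, neutrophils and macrophages. Srgn had 7901, 9921 and 11569 counts, or 621, 654 and 717 CPM, a mean of 664 ± 48.7 CPM. Per kilobase it was at 302 ± 22.2 CPM per kb, above 98.7% of the 12301 genes that reached 1 CPM in every library and had a length. Most markers of the other serglycin-making cells were at or near 0. In the mast cell and basophil list 9 of 10 genes had 3 counts or fewer in every library, and the summed level of 12.0 to 13.6 CPM was 99.0% Kit, which is not restricted to mast cells. In the platelet list 6 of 7 genes had 3 counts or fewer, Pf4 and Ppbp were at 0, and the sum of 7.46 to 8.77 CPM was 99.4% Itga2b. In the neutrophil list 8 of 10 genes had 3 counts or fewer and the sum was 0.186 to 1.18 CPM. In the macrophage list 7 of 11 genes had 3 counts or fewer, Csf1r, C1qa, C1qb and C1qc were at 0, and the sum of 13.4 to 16.5 CPM was mostly Mpeg1 (9.20 ± 1.44 CPM) and Cd68 (5.57 ± 0.265 CPM). B cell markers summed to 84.2 to 93.7 CPM, of which Ighm made up 81.9%. The part of other cells in the level of Srgn was not tested beyond these values. Srgn lies on chromosome 10 from 62493833 to 62527451 on the minus strand.

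Nkg7 and Cst7 followed Srgn in level, in CPM and per kilobase. Nkg7, a granule membrane protein that takes part in granule release, had 667, 771 and 802 counts, or 52.4, 50.8 and 49.7 CPM. Cst7, for the secreted and lysosomal protease inhibitor cystatin F, which acts on cathepsin C among others, had 597, 764 and 771 counts, or 46.9, 50.4 and 47.8 CPM. Both means, 51.0 ± 1.36 and 48.3 ± 1.82 CPM, varied between libraries about as much as counting gives, with coefficients of variation of 2.67% and 3.76% against 3.66% and 3.75%. Nkg7 lies on chromosome 7 from 43437073 to 43438249, between Lim2, with 0, 1 and 0 counts, and Cldnd2, with 22, 35 and 25 counts. Cst7 lies on chromosome 2 from 150570415 to 150578944, and its neighbour Apmap was at 27.7 ± 0.568 CPM.

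Ctsw, for cathepsin W, a cysteine protease of CD8+ T cells and NK cells, had 205, 219 and 227 counts, or 16.1, 14.4 and 14.1 CPM. Its mean was 14.9 ± 1.09 CPM, the libraries differed by 1.15-fold at most, and per kilobase Cst7 was 6.23-fold above it (log2 ratio 2.64 ± 0.14). Ctsw lies on chromosome 19 from 5465043 to 5468507 on the minus strand and shares 9 bases of exon with Fibp on the opposite strand. Fibp was at 32.2 ± 2.87 CPM, and with the strand setting of the counting not stated, reads in those 9 bases cannot be assigned to either gene.

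Klrd1 was low. It encodes CD94, which pairs with an NKG2 chain to form a receptor for the nonclassical major histocompatibility molecule Qa-1 on NK cells and activated CD8+ T cells. It had 29, 39 and 40 counts, a mean of 2.44 ± 0.150 CPM. Its partner chains also had few counts. Klrc1, for the inhibitory NKG2A chain, had 36, 68 and 44 counts, and Klrc2, for the activating NKG2C chain, had 21, 26 and 37. Klrd1 lies on chromosome 6 from 129591782 to 129598775 in the NK gene complex. Its neighbour Klre1 had 0, 0 and 2 counts, while Klrk1 on the other side, for the activating receptor NKG2D, was at 10.3 ± 0.840 CPM.

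**Figure D2:**
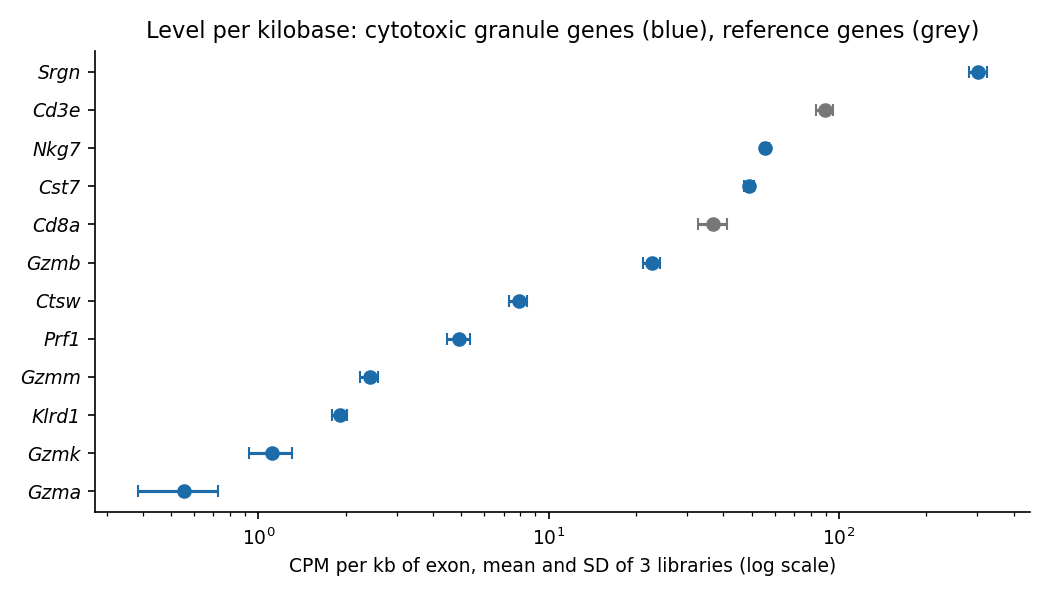
Mean and SD over 3 libraries of CPM per kb of exon, on a log axis, for the 10 cytotoxic granule genes (blue) and for Cd3e and Cd8a (grey). The order runs from Srgn at 302 to Gzma at 0.554 CPM per kb, with Gzmb at 22.7 below Cd8a at 36.8.

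Per kilobase the order was Srgn, Nkg7, Cst7, Gzmb, Ctsw, Prf1, Gzmm, Klrd1, Gzmk and Gzma, from 302 to 0.554 CPM per kb. The order was taken from the means of these same 3 libraries, so the higher gene of each pair was set by the values compared. In all 9 neighbouring pairs of this order the higher gene was higher in each of the 3 libraries, and the mean log2 ratio exceeded its SD. An exact two-sided sign-flip permutation test over 3 libraries cannot go below p = 0.25, and that value was reached for every pair, raw and adjusted by the Benjamini-Hochberg method over the 9 pairs. The steps of 2-fold or more were between Srgn and Nkg7 (5.41-fold), Gzmb and Ctsw (2.88-fold), Cst7 and Gzmb (2.17-fold), Gzmk and Gzma (2.07-fold) and Prf1 and Gzmm (2.03-fold). The smallest were between Nkg7 and Cst7, 1.14-fold with a log2 ratio of 0.19 ± 0.08, and between Gzmm and Klrd1, 1.27-fold with 0.34 ± 0.17. With the longest transcript as the length, Gzmm and Klrd1 no longer differed beyond their spread, at a log2 ratio of 0.06 ± 0.17, and the other 8 pairs did. The 95% counting intervals of neighbours overlapped in all 3 libraries for Gzmm and Klrd1 and for Gzmk and Gzma. They overlapped in 2 libraries for Nkg7 and Cst7 and for Klrd1 and Gzmk, and in none for the other 5 pairs. Among genes that reached 1 CPM in every library, Nkg7 lay above 90.7%, Cst7 above 89.3%, Gzmb above 76.1%, Ctsw above 48.2% and Prf1 above 35.9%.

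Set beside the CD8 coreceptor gene Cd8a, which was at 134 ± 15.3 CPM, the granule genes split into those above and those below it per kilobase. The coreceptor gene Cd4 was at 277 ± 4.73 CPM. Per kilobase Cd4 was at 68.6 ± 1.17, above the 36.8 ± 4.20 of Cd8a. Cd8a itself differed between libraries, at 149, 134 and 119 CPM in replicates 1, 2 and 3 (chi-square adjusted p = 1.11e-10). Cd8b1, for the other CD8 chain, went the other way, at 56.1, 64.4 and 69.7 CPM (chi-square adjusted p = 0.000148). Its level per kilobase was 42.8 ± 4.62, closer to Cst7 than that of Cd8a. Ratios to Cd8a thus also carry the spread of Cd8a. Srgn was 8.24-fold above Cd8a (log2 ratio 3.04 ± 0.27), Nkg7 1.52-fold above (0.61 ± 0.13) and Cst7 1.34-fold above (0.42 ± 0.19). Without division by length the log2 ratios of Nkg7 and Cst7 turned to -1.39 and -1.46, so their place relative to Cd8a rests on the length of the annotated exons. Gzmb was 1.62-fold below Cd8a (-0.70 ± 0.15), Ctsw 4.66-fold below, Prf1 7.47-fold below, and Gzmm, Klrd1, Gzmk and Gzma 15.2- to 68.5-fold below. Against Cd3e, a chain of the T cell receptor complex, the log2 ratio of Gzmb was -1.99, -1.98 and -1.97 in replicates 1, 2 and 3. The closeness of these ratios was not tested, and counting alone gives Gzmb a coefficient of variation of 4.58%. Of the set, Srgn alone was above Cd3e per kilobase, 3.38-fold.

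**Figure D3:**
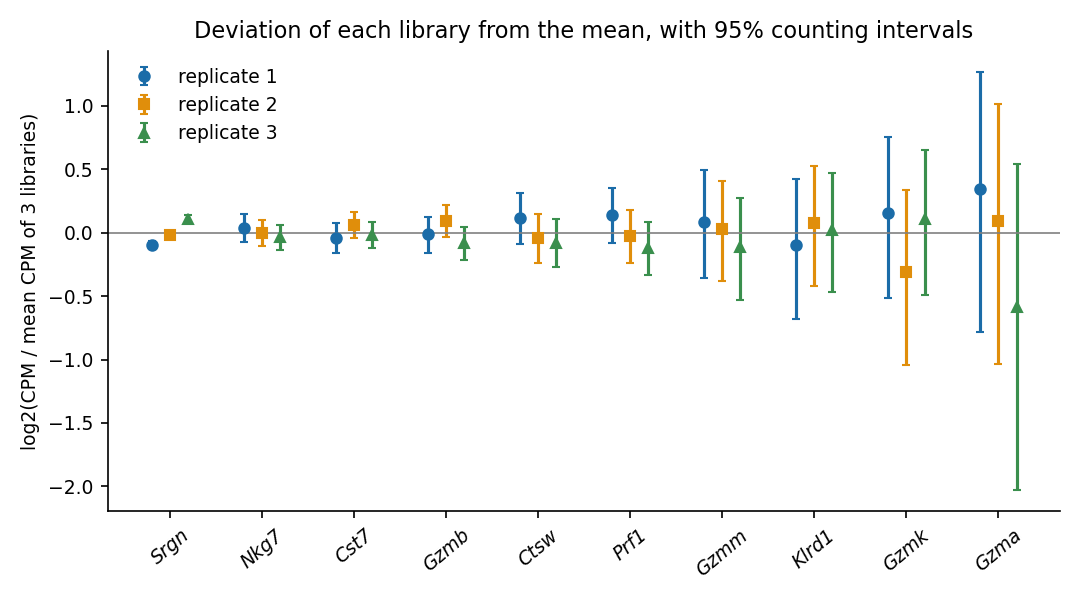
Deviation of each library from the mean of the 3, as log2(CPM / mean CPM), for the 10 cytotoxic granule genes, with exact 95% counting intervals. Srgn has narrow intervals that do not overlap between replicates 1, 2 and 3, while the wide intervals of Gzma, Gzmk, Gzmm and Klrd1 span 0.

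Between libraries, Srgn alone of the 10 genes was called as different before any length and GC trend was taken out. A chi-square test of the 3 counts against library size, adjusted by the Benjamini-Hochberg method over 15392 genes, called 1 of the 10 genes and 42.8% of all genes tested. Srgn was lowest in replicate 1 at 621 CPM and highest in replicate 3 at 717 CPM, a 1.15-fold range with an adjusted p of 4.66e-22 in the chi-square test. The other 9 had chi-square adjusted p-values of 0.218 (Gzmb) to 0.917 (Klrd1). Among them Prf1, with 178 to 189 counts, had a coefficient of variation of 9.11%, above the 7.33% of Srgn. A call thus depends on the number of counts as well as on the spread. The test allows for counting error only. Over the genes kept by edgeR the coefficient of variation beyond counting was 0.154, larger than the 7.33% of Srgn. Srgn was therefore called for its many counts and not for an unusually wide spread. The test compares libraries and not conditions, and at 6 to 55 counts, as for Gzma, Gzmk, Gzmm and Klrd1, a modest difference was not detectable. The library with the lowest Srgn, replicate 1, had the highest 18S share given above. With library sizes taken without the ribosomal RNA rows, the range of Srgn was 1.17-fold with a chi-square adjusted p of 9.94e-26. That setting changes the library size only, and a link between Srgn and the 18S share was not tested. After a trend of each library with exonic length and GC content was taken out, Srgn kept an adjusted p of 2.28e-13 over 14273 genes, of which 36.7% were called. Nkg7 and Cst7 were then called as well, with chi-square adjusted p-values of 0.00915 and 0.00275 and ranges of 1.20- and 1.22-fold.

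Genes that prepare granule proteins were mostly well expressed, 8 of 10 at 10 CPM or more in every library, with a list median of 78.3 CPM. Of all genes with a count, 38.1% reached that level, and their median was 2.89 CPM. Calr, for the chaperone calreticulin, which is also a granule protein, was at 744 ± 24.0 CPM, M6pr, for the mannose 6-phosphate receptor that sorts granzymes, at 423 ± 70.2 CPM, and the granule membrane gene Lamp1 at 157 ± 10.2 CPM. Ctsc, for the cathepsin C that activates granzymes, was at 48.8 ± 6.37 CPM, near the 48.3 ± 1.82 CPM of its inhibitor gene Cst7. Per kilobase Cst7 was 5.86-fold above Ctsc (log2 ratio 2.55 ± 0.20). That gap rests on annotated exon lengths of 986 bases for Cst7 and 5808 bases for Ctsc. Cd63, for a tetraspanin of lysosomes, was lowest with 3, 4 and 2 counts. The chi-square test called 6 of the 9 genes tested, beside 42.8% of all genes, among them M6pr at 358, 415 and 497 CPM, lowest in replicate 1 and highest in replicate 3 as for Srgn.

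Of 6 serpin genes of the granzyme-inhibitor group, 2 were at 10 CPM or more in every library, near the 38.1% of all genes with a count. Serpinb9, for the inhibitor that protects lymphocytes from their own granzyme B, had 815, 1116 and 1423 counts, or 64.0, 73.6 and 88.1 CPM. It differed between libraries by 1.38-fold (chi-square adjusted p = 5.94e-12), with replicate 1 lowest. Per kilobase its level of 21.5 ± 3.48 was near the 22.7 ± 1.44 of Gzmb, and the log2 ratio of Serpinb9 to Gzmb was -0.29, -0.20 and 0.24, with no constant sign. Serpinb6b followed at 17.8 ± 1.93 CPM and Serpinb6a at 7.52 ± 0.919 CPM, and Serpinb9c had 0 counts.

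Of the factors of granule release, 13 of 16 genes were at 10 CPM or more in every library, with a list median of 62.3 CPM. Beside them stood 38.1% of all genes with a count, and 68.1% of genes of at least 1 CPM in every library. Rab7, for a late endosomal GTPase, was at 179 ± 10.6 CPM, Kif5b, for a kinesin motor, at 155 ± 21.3 CPM and Unc13d, for the vesicle priming factor Munc13-4, at 119 ± 5.52 CPM. Genes of the same pathway whose loss causes immune disease in humans were also detected in every library, with Stxbp2 at 104 ± 5.58, Lyst at 63.5 ± 10.1, Stx11 at 61.1 ± 5.51 and Rab27a at 31.2 ± 0.765 CPM. Vamp7 had 0 counts in all 3 libraries. In the GENCODE annotation it lies on an unplaced scaffold, and the scaffolds covered by the authors' counting are not stated.

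**Figure D4:**
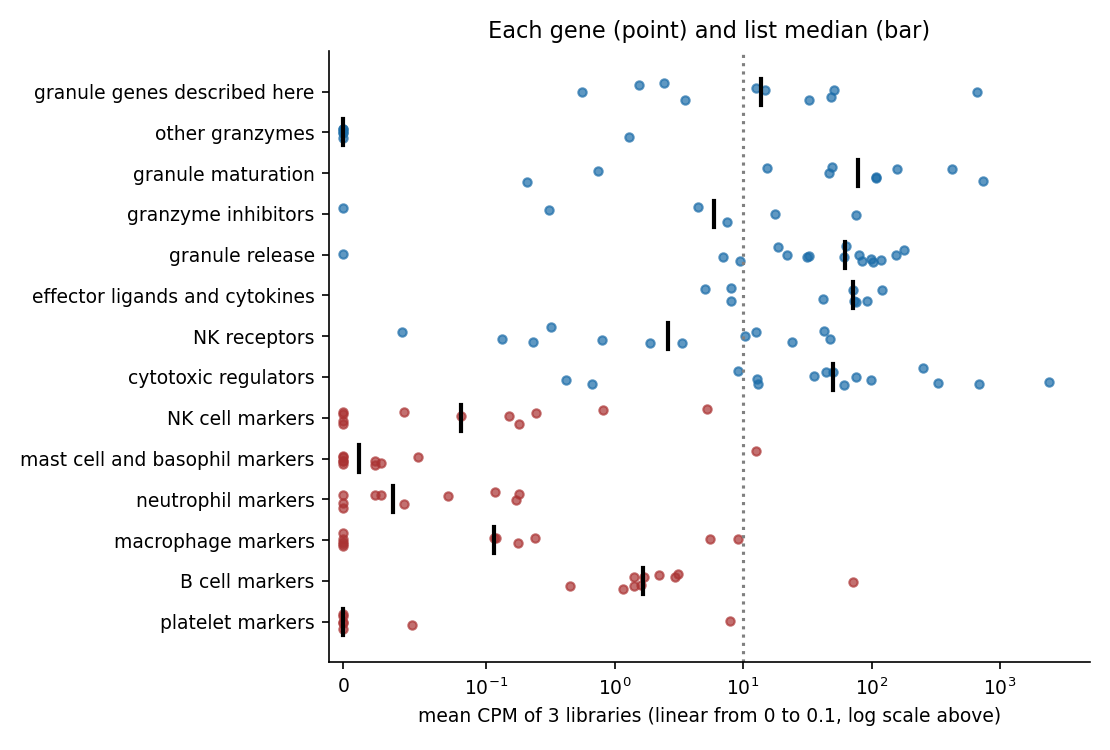
Mean CPM over 3 libraries of each gene (points) and the median (bars) of the 10 cytotoxic granule genes, 7 lists of related genes (blue) and 6 lists of markers of other cells (red); the axis is linear from 0 to 0.1 CPM and logarithmic above, and the dotted line is 10 CPM. Lists of granule maturation and release have medians of 78.3 and 62.3 CPM, while the lists of markers of other cells have medians of 0 (platelets) to 1.65 CPM (B cells).

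Most of the other effector genes were well expressed. Of 9 death ligands, cytokines and chemokines, 6 were at 10 CPM or more in every library. That share was above the 38.1% of all genes with a count, but near the 68.1% of genes of at least 1 CPM in every library. The list was led by Ccl4 at 120 ± 8.19, Ccl3 at 92.8 ± 16.8 and Xcl1 at 75.3 ± 36.3 CPM. Fasl, for the ligand of the other killing pathway, was lowest at 5.05 ± 0.912 CPM. Xcl1 and Ccl5 differed by at least 2-fold between libraries and passed the chi-square test, as 7.06% of all genes did. Xcl1 had 113, 71.5 and 41.0 CPM and Ccl5 10.1, 9.10 and 4.71 CPM in replicates 1, 2 and 3, both lowest in replicate 3, where Srgn was highest.

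Transcription factors of cytotoxic lymphocytes were present, 12 of 15 at 10 CPM or more in every library, beside 38.1% of all genes with a count. The list was led by factors of wider use in activated T cells, with Irf4 at 2409 ± 212, Stat5a at 688 ± 12.9 and Stat5b at 331 ± 4.16 CPM. Runx3, the regulator of the CD8 lineage, was at 75.5 ± 3.96 CPM and Tbx21, for T-bet, at 61.4 ± 1.71 CPM, while Eomes, its relative in effector and memory CD8+ T cells and NK cells, was at 9.06 ± 1.73 CPM. Zfp683, for Hobit, was lowest with 11, 3 and 3 counts.

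Of the receptors and adaptors shared by NK cells and cytotoxic T cells, 4 of 12 were at 10 CPM or more in every library, near the 38.1% of all genes with a count, and 4 of 12 were under 1 CPM in every library. The list median of 2.62 CPM was near the 2.89 CPM of all genes with a count. Cd226 at 47.1 ± 6.95, Crtam at 43.0 ± 6.38 and Slamf7 at 23.9 ± 0.832 CPM led the list, and Klre1 was lowest. Of the adaptors, Hcst, for DAP10, the partner of NKG2D, was at 12.6 ± 0.554 CPM. Tyrobp, for DAP12, had 3, 7 and 0 counts, and Fcer1g had 9, 4 and 23 counts and passed the chi-square test (adjusted p = 0.00453). Of 11 NK cell marker genes, 10 were under 1 CPM in every library. Ncr1, for the receptor NKp46, had 0 counts in all 3 libraries, Klrb1c, for NK1.1, had 10, 12 and 14, and 5 of the 11 marker genes had 3 counts or fewer in every library. Their summed level was 5.73 to 7.93 CPM, of which Klrb1f made up 77.4%. Reads of these BALB/c mice were placed on mm10, a C57BL/6J reference. Any effect of strain on the marker counts was not tested. The part of NK cells in the level of the granule genes was not tested beyond the values given here.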

How the data were processed

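The values the authors deposited were raw read counts by gene symbol in a single table, 1 column for each replicate. Per the submitters' processing notes, reads were placed on mm10. The aligner, the counter, its strand setting and annotation, and any filters are not stated. Per the labels' protocols, RNA came from a Trizol extraction and libraries from an Ion Proton RNA-Seq kit. Totals were 13239482, 15007652 and 15683820 counts for replicates 1, 2 and 3.

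Counts were scaled by TMM (factors 0.962, 1.01 and 1.03; edgeR 4.0.16 in R 4.3.3) and given as CPM. With 1 group, edgeR's quasi-likelihood test had no contrast. The counts of each gene with an expected count of 5 or more per library were instead set against effective library sizes by a chi-square test. It was Benjamini-Hochberg adjusted over 15392 genes at 0.05. A trial on simulated data used counting noise alone. It cannot show how the test behaves on these libraries, where edgeR gave a coefficient of variation beyond counting of 0.154. Exonic lengths (union of exons), GC content and positions came from GENCODE M21 (GRCm38), where 32133 of 44788 symbols and all 10 genes described here matched, 1193 through older names. Cd244a and Adgre1 stand in the table under older names. Transcripts were compared with blastn 2.17.0. Promoter windows came from RefSeq. Splines with 6 degrees of freedom, fitted by robust regression over genes with a mean of 5 CPM or more, gave the length and GC trends.

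The genes, lists and tests were chosen with earlier results of these data known. Named genes were the 10 genes, the 3 highest and the lowest of each list, list genes called at 2-fold or more, genomic neighbours, and Cd8a, Cd4 and Cd3e. Names given beyond this rule, such as Lyst, Tyrobp, Runx3 and Tbx21, were chosen for their known role after values were seen, and some that the rule allows are not reported here. With 3 libraries no likeness of pattern between genes was computed. Alternatives were DESeq2 1.42.0 size factors, no scaling factor, other count and CPM limits, a likelihood-ratio test, library sizes without ribosomal RNA rows, the length and GC trend, other gene lengths and leaving out each replicate.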

Additional observations from a re-analysis of the deposited data

How the results depend on the processing

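The choice of length moved the ratios most. With the longest transcript in place of all exons the log2 ratio of Gzmb to Cd8a was -0.91 and to Cd3e -2.66, and without division by length they were -2.04 and -3.48, because Cd8a and Cd3e have longer annotated exons. Without division by length the ratios of Nkg7 and Cst7 to Cd8a reversed to -1.39 and -1.46. The order of the 10 genes was the same with the longest transcript and without each replicate in turn. With the longest transcript 8 of the 9 neighbour pairs lay beyond their spread, Gzmm and Klrd1 being lost at a log2 ratio of 0.06. With the length and GC trend 3 of the 10 genes were called in place of 1, Nkg7 and Cst7 being added. Srgn was the 1 gene called under every other alternative run, with chi-square adjusted p-values from 7.49e-46 to 0.00360, the last without replicate 3. Over all genes, leaving out 1 replicate gave 3555 to 6385 calls in place of 6589, the lowest without replicate 3, with 3836 without replicate 1. At 20 CPM 1 serpin gene passed in place of 2. Among genes of at least 1 CPM in every library, 68.1% reached 10 CPM in place of 38.1%. No paired analysis was possible because all libraries belonged to 1 group. Depth limits Gzma, Gzmk, Gzmm and Klrd1, whose 95% counting intervals are wide.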
